A study of Mus musculus with 12 samples.

Results

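The genes described here separate a pair of mouse uteri that differ by 1 mutant copy of the Hoxd cluster genes Hoxd9, Hoxd10 and Hoxd11. One uterus library came from Hoxa9,10,11-/- females (the Hoxa-null uterus), with both copies of Hoxa9, Hoxa10 and Hoxa11 mutant and Hoxd wild type. The other came from Hoxa9,10,11-/-d9,10,11+/- females (called the compound uterus below), which carried in addition 1 mutant Hoxd copy. A gene was a member when its deposited log2 value differed by at least 1 log2 unit, which is 2-fold, between the compound and the Hoxa-null uterus. Of 31618 genes, 2586 met this rule, 1540 of them higher and 1046 lower in the compound uterus. The difference that chose these genes is given below as a description, with no test.

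The series holds 12 RNA sequencing libraries from female and male reproductive tracts of CD1/129 mice aged 3 to 7 months, with females collected in diestrus, a phase of the oestrous cycle. Context came from the WT uterus, the Hoxd-null uterus (Hoxd9,10,11-/-), the compound Hoxd-null uterus (Hoxa9,10,11+/-d9,10,11-/-, with 1 mutant Hoxa copy and both Hoxd copies mutant), the WT oviduct, and the vas deferens of the Hoxa-null and compound Hoxa-null genotypes. Each group is 1 library made from RNA pooled from 3 animals, so the spread between animals is unknown, no difference has a replicate check and no p-value is given. The WT and Hoxa-null uteri were sequenced in lane 1 of a run and the 3 other uteri in lane 2, so lane and the lost Hoxd copy cannot be told apart between this pair of uteri. Whole uterus was sampled, so fewer cells of a type and less RNA per cell cannot be told apart either.

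Hox genes of groups 9 to 13 encode homeodomain transcription factors that set the identity of successive segments of the reproductive tract, and in the mouse the Hoxa and Hoxd copies of a group can stand in for each other in part. In the uterus, Hoxa10 and Hoxa11 are known for their part in gland development, in the response of the stroma to progesterone and in implantation. The adult uterine lining is a simple columnar epithelium with glands, whereas the vagina and the outer cervix carry a stratified squamous epithelium rich in keratins.

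Before its values were centred, a read count had been scaled by library and raised to at least 1 normalised read, which is called the floor below. Genes counted as measured when the highest female library reached 20 normalised reads or when no read level could be recognised. This left 17043 genes, and the female libraries differed in relative depth by 1.34-fold at most. Among the members, 2049 were measured, with 365 higher and 172 lower members below the minimum. The measured members were 12% of all measured genes, with 1175 genes (6.89%) higher and 874 genes (5.13%) lower in the compound uterus. Their median difference was 1.42 log2 units among the higher and -1.50 among the lower members, and 275 higher and 246 lower members passed 2 log2 units. At the threshold, 158 members lay between 1 and 1.05 log2 units, and 172 measured genes lay just outside it, between 0.95 and 1. The lower of the pair of libraries stood at the floor for 67 higher and 28 lower members, and for these genes a fold change is given as a lower bound, computed against 3 reads in that library. Predicted or unnamed transcripts made up 298 of the higher and 171 of the lower members.

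The mutated genes themselves were not among the members. Hoxd11 lay 0.61 log2 units lower in the compound uterus, at -1.35 log2 units from the WT uterus against -0.74 in the Hoxa-null uterus. The difference was -0.36 log2 units for Hoxd9 and 0.32 for Hoxd10. In none of these 3 genes did the library with 1 mutant Hoxd copy stand 2-fold below the other. Hoxa9, Hoxa10 and Hoxa11, mutant on both copies in both libraries, differed by 0.61, 0.65 and -0.37 log2 units. The labels do not give the kind of allele, so mutant copies may still give transcripts. None of the 31 measured Hox genes of the 4 clusters passed 2-fold, and the medians were 0.58 log2 units for 10 Hoxa, 0.14 for 8 Hoxb, 0.44 for 7 Hoxc and -0.13 for 6 Hoxd genes, beside 0.01 for all measured genes. Esr1 and Pgr, the steroid receptors of the uterus, differed by 0.21 and -0.09 log2 units and were recognised at the floor in no female library. Sntn, a gene of motile cilia, marked the oviduct library with 1972 normalised reads and reached at most 3.59 in any uterus.

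Measured from the WT uterus, the members fell on both sides of the Hoxa-null state. Among the higher members, 308 (26.2%) differed at least 2-fold from WT only in the Hoxa-null uterus, with medians of -1.59 log2 units there and -0.01 in the compound uterus. These genes stood low in the Hoxa-null library and at the WT level in the compound library, which also lacks wild-type Hoxa copies. A further 410 higher members (34.9%) differed from WT only in the compound uterus, at medians of 0.05 and 1.59 log2 units. Another 83 lay above WT in both uteri and farther in the compound one, 74 lay below WT in both and nearer in the compound one, 64 lay on opposite sides of WT by at least 2-fold each way, and 236 were within 2-fold of WT in both.

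The lower members divided in much the same proportions. Only the Hoxa-null uterus differed from WT for 222 of them (25.4%), with medians of 1.85 log2 units there and 0.00 in the compound uterus. Only the compound uterus differed for 287 (32.8%), with medians of -0.06 and -1.63 log2 units. In 89 the compound uterus was farther below WT than the Hoxa-null uterus, in 74 it was nearer to WT from above, 31 lay on opposite sides and 171 were within 2-fold of WT in both. The compound library was the closer of the pair to WT for 530 of the 1175 higher members (45.1%) and 378 of the 874 lower ones (43.2%). The Hoxa-null library enters both the choice of members and its own distance from WT, so a value that stands apart in that library alone gives a member placed back at WT. Of all measured genes, 13.8% stood at least 2-fold from WT in the Hoxa-null uterus (6.19% above, 7.57% below) against 15.8% in the compound uterus (8.7% above, 7.11% below).

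**Figure D1:**
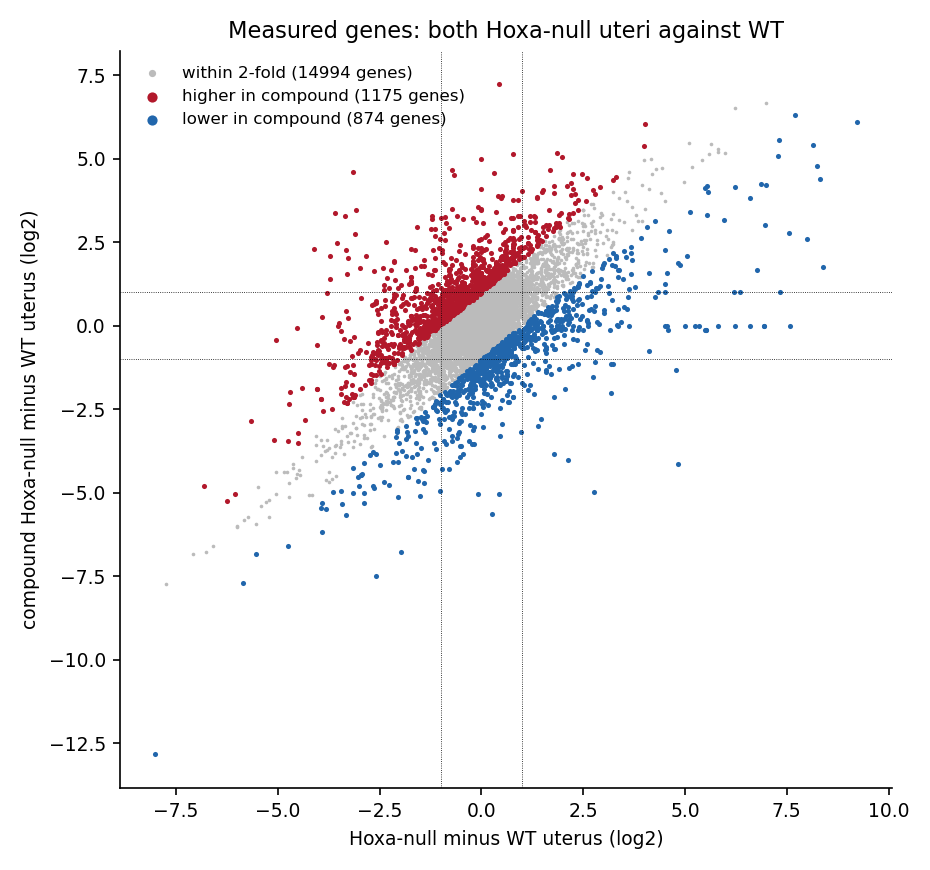
Each point is 1 measured gene, placed by its difference from the WT uterus in the Hoxa-null uterus (x axis, log2) and in the compound uterus (y axis, log2), in red when at least 2-fold higher in the compound uterus (1175 genes), in blue when lower (874) and in grey otherwise, with dotted lines 1 log2 unit either side of WT. The band between the horizontal dotted lines holds 308 red and 222 blue genes at least 2-fold from WT only in the Hoxa-null uterus, and the band between the vertical lines holds 410 and 287 that were so only in the compound uterus.

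The largest difference of any measured member was in Krt84 (Gene ID 16680, mm9 chromosome 15, start 101355457), a type II keratin of hair and of the tongue. Krt84 stood at 4.82 log2 units above the WT uterus in the Hoxa-null library, -4.14 in the compound, -1.82 in the Hoxd-null uterus and -1.15 in the compound Hoxd-null library. Only the Hoxa-null uterus lay above WT, and the compound uterus was the lowest of the 5 uteri, 8.96 log2 units below the Hoxa-null uterus. Its start region, from 250 bases before to 50 after the annotated start, is shown because this window holds sequences of the kind that posterior Hox proteins bind. It lies at chr15:101532771-101533070, minus strand, in the RefSeq annotation of GRCm38.p6, and the capitals mark TTTATGA on either strand, found 97 and 65 bases before the start.
Krt84: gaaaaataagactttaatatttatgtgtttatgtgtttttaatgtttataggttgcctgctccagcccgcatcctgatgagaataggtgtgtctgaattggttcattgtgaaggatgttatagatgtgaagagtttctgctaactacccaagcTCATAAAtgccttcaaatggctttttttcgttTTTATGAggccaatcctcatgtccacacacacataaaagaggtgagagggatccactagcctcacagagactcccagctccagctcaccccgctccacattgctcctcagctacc

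Such matches were no more frequent among the members. TTTATGA, searched on both strands of the same 300-base window, occurred in 4.36% of the 27025 genes with a window, in 3.82% of the 759 higher members with one and in 3.17% of the 599 lower ones. TTTACGA, the other letter string searched for posterior Hox proteins, occurred in 0.681% of all genes, 0.395% of higher and 0.501% of lower members. A match describes letters only and says nothing of binding in these uteri.

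Genes of a stratified squamous epithelium formed the list with the most lower members. Of 26 measured genes, 21 were at least 2-fold lower in the compound uterus and none higher, against 5.13% lower among all measured genes, and all 26 differences were negative, with a median of -1.92 log2 units. The median level of the list was 5.23 log2 units above WT in the Hoxa-null uterus, 1.85 in the compound, -0.03 in the Hoxd-null uterus and 1.38 in the compound Hoxd-null uterus. The Hoxa-null library was the highest of the 5 uteri for 24 of the 26 genes. At least 2-fold above WT were 23 genes in the Hoxa-null against 16 in the compound uterus.

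Differences within the list ran from -6.63 to -0.21 log2 units. Krt6b (Gene ID 16688, mm9 chromosome 15, start 101506454), a keratin of wounded and suprabasal epidermis, stood 8.38 log2 units above WT in the Hoxa-null, 1.75 in the compound, -1.86 in the Hoxd-null uterus and 1.89 in the compound Hoxd-null uterus. Krt6a stood at 7.99, 2.59, -1.73 and 1.03 log2 units in the same order, and its usual partner Krt16 at 7.56, 2.76, -1.04 and 1.05. In all 3 keratins the Hoxa-null uterus was far above the other 4, and the compound uterus differed from it by -6.63, -5.40 and -4.79 log2 units. Krtdap, a secreted protein of differentiating keratinocytes, had 73.7 normalised reads in the Hoxa-null uterus, 2.0 in the compound, 3.59 in the Hoxd-null, 6.40 in the compound Hoxd-null and a WT value at the floor. The ratio of the Hoxa-null to the compound uterus was 36.9-fold for Krtdap, with a 95% interval of 9.85 to 309. Like all intervals here, it covers counting error only. It does not allow for the choice of the gene by this same difference, so it is no support for the difference. Lypd3, a surface protein of suprabasal keratinocytes, differed by -3.97 log2 units, and Krt1, the keratin of the first suprabasal layers, by -3.43. Other genes of activated or differentiating layers differed less, by -1.52 for Krt17, -1.56 for Krt10, -1.70 for Lor, -1.74 for the cross-linking enzyme Tgm1 and -1.16 for Ivl.

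The basal layer genes Krt14, Krt5, Trp63 and Krt15 differed by -2.76, -1.76, -0.53 and -0.21 log2 units. Krt14 stood 6.98 log2 units above WT in the Hoxa-null against 4.22 in the compound uterus, and its partner Krt5 7.31 and 5.55. Trp63, the transcription factor that specifies stratified epithelium, stood at 4.02 and 3.49, and the basal keratin Krt15 at 5.64 and 5.42. Trp63 and Krt15 were within 2-fold between the pair of uteri and far above WT in both. The Hoxd-null uterus lay within 1 log2 unit of WT for these 4 genes, whereas the compound Hoxd-null uterus stood at 2.46, 3.23, 1.28 and 2.91 log2 units for Krt14, Krt5, Trp63 and Krt15. The other 3 measured members of the list stayed within 2-fold, with differences of -0.82 for Col17a1, -0.76 for Sbsn and -0.72 for Perp. Keratin genes are near-identical in places, and how shared reads were counted is not given in the sources used here, so values of close pairs such as Krt6a and Krt6b may share reads.

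**Figure D2:**
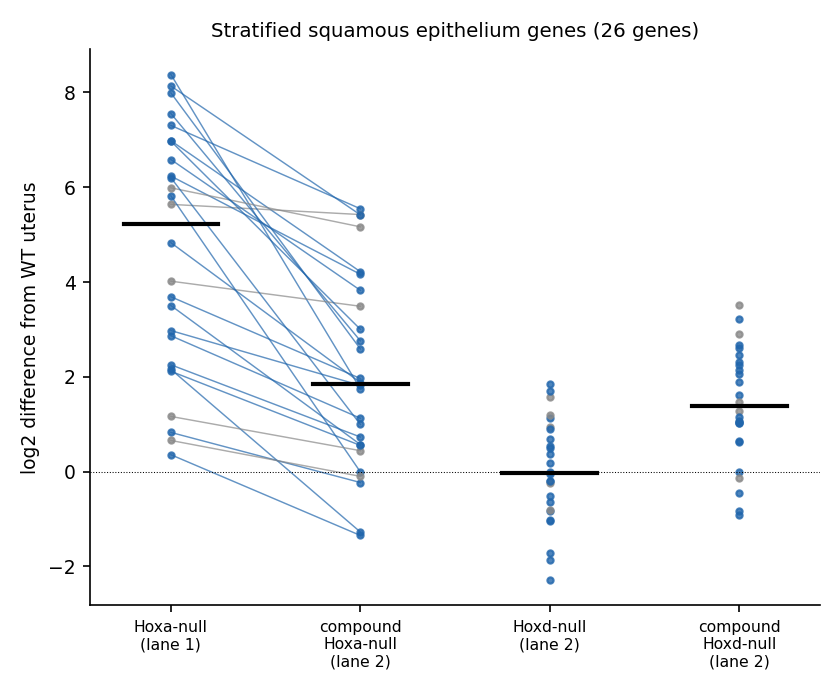
Each point is 1 of 26 stratified squamous genes, by its difference from the WT uterus (y axis, log2) in the 4 mutant uteri (x axis), with a line joining the gene between the Hoxa-null and the compound uterus, blue for the 21 genes at least 2-fold lower there and grey for the rest, and a bar at the median. All 26 lines slope down, and the median moves from 5.23 to 1.85.

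Gel-forming mucins and genes that accompany them in mucous epithelia were lower in the compound than in the Hoxa-null uterus. These genes were singled out after their values were seen. Muc5b (Gene ID 74180, mm9 chromosome 7, start 149024977) had 63.6 normalised reads in the WT, 432 in the Hoxa-null, 2.0 in the compound uterus and 2.40 in the Hoxd-null uterus, with the compound Hoxd-null uterus at the floor. Both lane 1 uteri were high and all 3 lane 2 uteri near or at the floor. The Hoxa-null to compound ratio was 216-fold, with an interval of 59.4 to 1788. Muc5ac, its neighbour and close relative, which can share reads with it, stood at 0.26 log2 units from WT in the Hoxa-null, -5.64 in the compound, -1.58 in the Hoxd-null uterus and -1.60 in the compound Hoxd-null uterus.

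Tff1 (Gene ID 21784, mm9 chromosome 17, start 31298341), a trefoil peptide secreted with mucins in the stomach, had 124 normalised reads in the Hoxa-null uterus and stood at the floor in the 4 other uteri. It was at least 41.3-fold lower in the compound uterus. Ern2, an endoplasmic reticulum stress sensor of mucus-secreting cells, had 75.4 normalised reads in the Hoxa-null uterus and at most 1.20 in the 4 others, at least 25.1-fold lower in the compound uterus. Tff1 and Ern2 thus stood high in 1 library only, whereas Muc5b was also above the floor in the WT uterus.

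Other large lower members outside the lists were spread over several functions. Trex2, a DNA exonuclease of keratinocytes, had 162 normalised reads in the Hoxa-null against 2.0 in the compound uterus, an 81.1-fold ratio with an interval of 22.1 to 674. Otop1, a proton channel, had 97.4 and 1.0 normalised reads, a 97.4-fold ratio with an interval of 17.1 to 3878. Atp6v1b1, a subunit of the proton pump of acid-secreting epithelia, had 49.4 normalised reads in the Hoxa-null uterus, at most 1.10 in the 4 others and 422 in the oviduct, and its Hoxa-null to compound ratio of 49.4-fold had an interval of 8.48 to 1986. In these 3 genes only the Hoxa-null uterus stood well above the floor, apart from 8.23 normalised reads of Otop1 in the compound Hoxd-null uterus. Tmprss11d, a trypsin-like protease of airway epithelium, stood at 1.78 log2 units from WT in the Hoxa-null against -3.84 in the compound uterus, and Serpinb1c, a serine protease inhibitor, at 0.43 and -5.03.

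On the higher side the largest difference was in Olah (Gene ID 99035, mm9 chromosome 2, start 3259260), a thioesterase that releases medium-chain fatty acids. Olah stood at -3.16 log2 units from WT in the Hoxa-null, 4.61 in the compound, -0.58 in the Hoxd-null uterus and -3.62 in the compound Hoxd-null uterus. The compound uterus alone lay above WT, 7.78 log2 units over the Hoxa-null uterus. Npy2r, a receptor for neuropeptide Y (mm9 chromosome 3, start 82342305), stood at -3.34, 3.27, 0.45 and -0.81 log2 units in the same order, a difference of 6.62. Acbd7 (start 3253440) and Meig1 (start 3326315), on either side of Olah on chromosome 2, were also lower than WT in the Hoxa-null uterus and higher in the compound one, with differences of 5.86 and 6.01 log2 units. Acbd7 encodes an acyl-CoA binding protein and Meig1 a protein needed for spermatid formation. Whether overlapping transcripts share reads at these neighbouring loci cannot be read from the deposited values.

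Drd4, a dopamine receptor, stood at -0.73 log2 units from WT in the Hoxa-null against 4.67 in the compound uterus, and Ano2, a calcium-activated chloride channel, at -4.12 and 2.28. Lefty1 (Gene ID 13590), a secreted antagonist of Nodal, stood at the floor in the WT and Hoxa-null uteri and had 4.79 normalised reads in the Hoxd-null, 32.0 in the compound and 21.8 in the compound Hoxd-null uterus. It was at least 11.3-fold higher in the compound than in the Hoxa-null uterus, and both lane 1 uteri were at the floor.

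Genes of seminal vesicle secretion were also among the largest higher members. Semg1, a clotting protein of semen, had 251 normalised reads in the WT, 49.2 in the Hoxa-null, 789 in the Hoxd-null, 1438 in the compound and 1475 in the compound Hoxd-null uterus, and stood at the floor in the oviduct. Svs4, a seminal vesicle secretory protein, had 13.2 normalised reads in the WT, 37.1 in the Hoxd-null, 55.9 in the compound and 49.9 in the compound Hoxd-null uterus. The Hoxa-null uterus was at the floor for Svs4, at least 19.7-fold below the compound uterus. It was the lowest of the 5 uteri for both genes. The Hoxd-null, compound and compound Hoxd-null uteri, which shared a lane, all stood above the WT and Hoxa-null uteri, which shared another. The smallest gap between these lanes was 1.65 log2 units for Semg1 and 1.49 for Svs4. For both genes lane and mutation cannot be told apart. Defb28, a beta-defensin, had 28.9 normalised reads in the compound uterus and was at least 10.2-fold higher there than in the Hoxa-null uterus, which was at the floor. The source of these transcripts in whole uterus was not tested.

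Hormone-response genes, taken from lists of genes known to be induced in the mouse uterus, differed in opposite directions. Of 17 measured genes induced by progesterone, 7 were at least 2-fold higher in the compound uterus and none lower, against 6.89% higher among all measured genes, with a median of 0.72 log2 units. The medians from WT were -1.28 in the Hoxa-null, -0.09 in the compound, -0.11 in the Hoxd-null uterus and -0.96 in the compound Hoxd-null uterus. Irg1, an enzyme of itaconate synthesis, stood at -2.23 log2 units from WT in the Hoxa-null against 0.16 in the compound uterus. Ihh, the hedgehog ligand through which the epithelium signals to the stroma, stood at -1.28 and -0.09. Both genes were below WT in the Hoxa-null uterus but near it in the compound one. Areg, an epidermal growth factor receptor ligand, stood at -3.95 and -2.20, still at least 2-fold below WT in both. It was not alone, as 6 of the 17 genes were that far below WT in the compound uterus, against 10 in the Hoxa-null uterus. Of these 6, Cyp26a1 and Hand2 went farther below WT, from -3.15 to -3.65 and from -1.50 to -1.96. Calca, Il13ra2 and Fst, like Areg, came nearer to WT. Hoxa10, itself a mutated gene in both genotypes, also belongs to this list. Lrp2, an endocytic receptor, and Hdc, which makes histamine, were above WT in the compound uterus, at 1.38 and 1.32 log2 units.

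Zbtb16, a transcription factor, and Fst, an activin-binding protein, completed the 7 higher genes, with differences of 1.32 and 1.11 log2 units. Between the Hoxd-null and compound Hoxd-null uteri, which differ by 1 mutant Hoxa copy and shared lane 2, none of the 17 genes reached 2-fold upwards and 6 did so downwards in the compound Hoxd-null uterus, against 5.64% higher and 4.58% lower among all measured genes. Pgr, the progesterone receptor, differed by -0.09 log2 units between the compound and Hoxa-null uteri.

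Of 18 measured genes induced by oestrogen, 8 were lower in the compound uterus and none higher, against 5.13% lower among all measured genes, with a median of -0.95 log2 units, and the compound uterus was the lowest of the 5 uteri for 12 of them. Sprr2a1, a small proline-rich protein of the lining, stood at 0.65 log2 units from WT in the Hoxa-null, -2.27 in the compound, 0.02 in the Hoxd-null uterus and 1.67 in the compound Hoxd-null uterus. The enzymes Padi1 and Padi2, which convert arginine to citrulline in proteins, stood at 1.98 and 1.78 in the Hoxa-null uterus, against -0.07 and -0.16 in the compound uterus. Sprr2a1 was thus below WT in the compound uterus, whereas the Padi genes were near it. Lactotransferrin (Ltf), a classical oestrogen-induced secretory protein, differed by 0.49 log2 units and complement C3 by -0.03. Between the Hoxd-null and compound Hoxd-null uteri, 8 of the 18 genes were at least 2-fold higher in the latter and none lower, with a median of 0.87. The Sprr2 genes are near-identical and may share reads. Some genes of these lists belong to others here, such as Lcn2 in the gland list and Ltf in the neutrophil list.

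Cell cycle genes were lowest in the compound uterus. Of 17 measured genes, 4 were at least 2-fold lower and none higher, against 5.13% lower among all measured genes. In this list 16 differences were negative with a median of -0.75 log2 units, and the compound uterus was the lowest of the 5 uteri for 16 genes. Rrm2, a subunit of ribonucleotide reductase, stood at 0.61 log2 units from WT in the Hoxa-null, -1.35 in the compound, 0.32 in the Hoxd-null uterus and 0.23 in the compound Hoxd-null uterus. Mcm5, a subunit of the replicative helicase, stood at 0.18, -1.38, 0.24 and 0.07. In both genes the 4 other uteri lay close together and the compound uterus apart below them. Mcm2 and the mitotic survivin gene Birc5 differed by -1.03 and -1.07 log2 units. Mki67, the usual proliferation marker, differed by -0.34, and Plk1 was the exception with 0.37.

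Chemokines contained many higher members. Of 27 measured chemokine genes, 11 were higher and 2 lower in the compound uterus, with a median of 0.49 log2 units. Among all measured genes, 6.89% were higher and 5.13% lower. Ccl20, which attracts cells bearing Ccr6, had 23.0 normalised reads in the WT, 3.59 in the Hoxd-null, 22.0 in the compound and 4.57 in the compound Hoxd-null uterus. It stood at the floor in the Hoxa-null uterus, at least 7.77-fold lower than in the compound uterus, whose level was close to that of WT. The neutrophil-attracting Cxcl5 stood at -1.02 log2 units from WT in the Hoxa-null, 2.61 in the compound, 0.86 in the Hoxd-null uterus and 3.82 in the compound Hoxd-null uterus. Cxcl2 (Gene ID 20310, mm9 chromosome 5, start 91332925), another ligand of the neutrophil receptor Cxcr2, stood at -0.22, 3.22, 2.71 and 4.28. For Cxcl2 all lane 2 uteri were high and both lane 1 uteri low. The lane 2 uteri stood above both lane 1 uteri for Cxcl5 as well. Ccl17, a ligand of Ccr4, stood at -1.14, 2.03, 1.69 and 2.65, again with the 3 lane 2 uteri above both lane 1 uteri. Among the lower ones, the monocyte-attracting Ccl7 stood 2.38 log2 units above WT in the Hoxa-null against 0.80 in the compound uterus, and the epithelial Cxcl15 differed by -1.24.

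The start region of Cxcl2 is shown because it holds a kappaB motif, the letters that NF-kappaB factors are known to bind at inflammatory genes. It lies at chr5:90903649-90903948, plus strand, in the RefSeq annotation of GRCm38.p6, with the same window as for Krt84, and the capitals mark the motif 97 bases before the start.
Cxcl2: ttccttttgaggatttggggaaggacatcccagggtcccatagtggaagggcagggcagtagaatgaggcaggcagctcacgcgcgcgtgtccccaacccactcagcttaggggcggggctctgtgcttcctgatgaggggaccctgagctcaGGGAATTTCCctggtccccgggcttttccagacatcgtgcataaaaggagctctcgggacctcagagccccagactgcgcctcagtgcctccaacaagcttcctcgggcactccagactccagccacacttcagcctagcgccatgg

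The motif, spelled GGGA, any base and TTTCC and searched on both strands, occurred in this window in 0.466% of all genes, 0.791% of the higher and 1.0% of the lower members, which is 6 genes on each side.

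**Figure D3:**
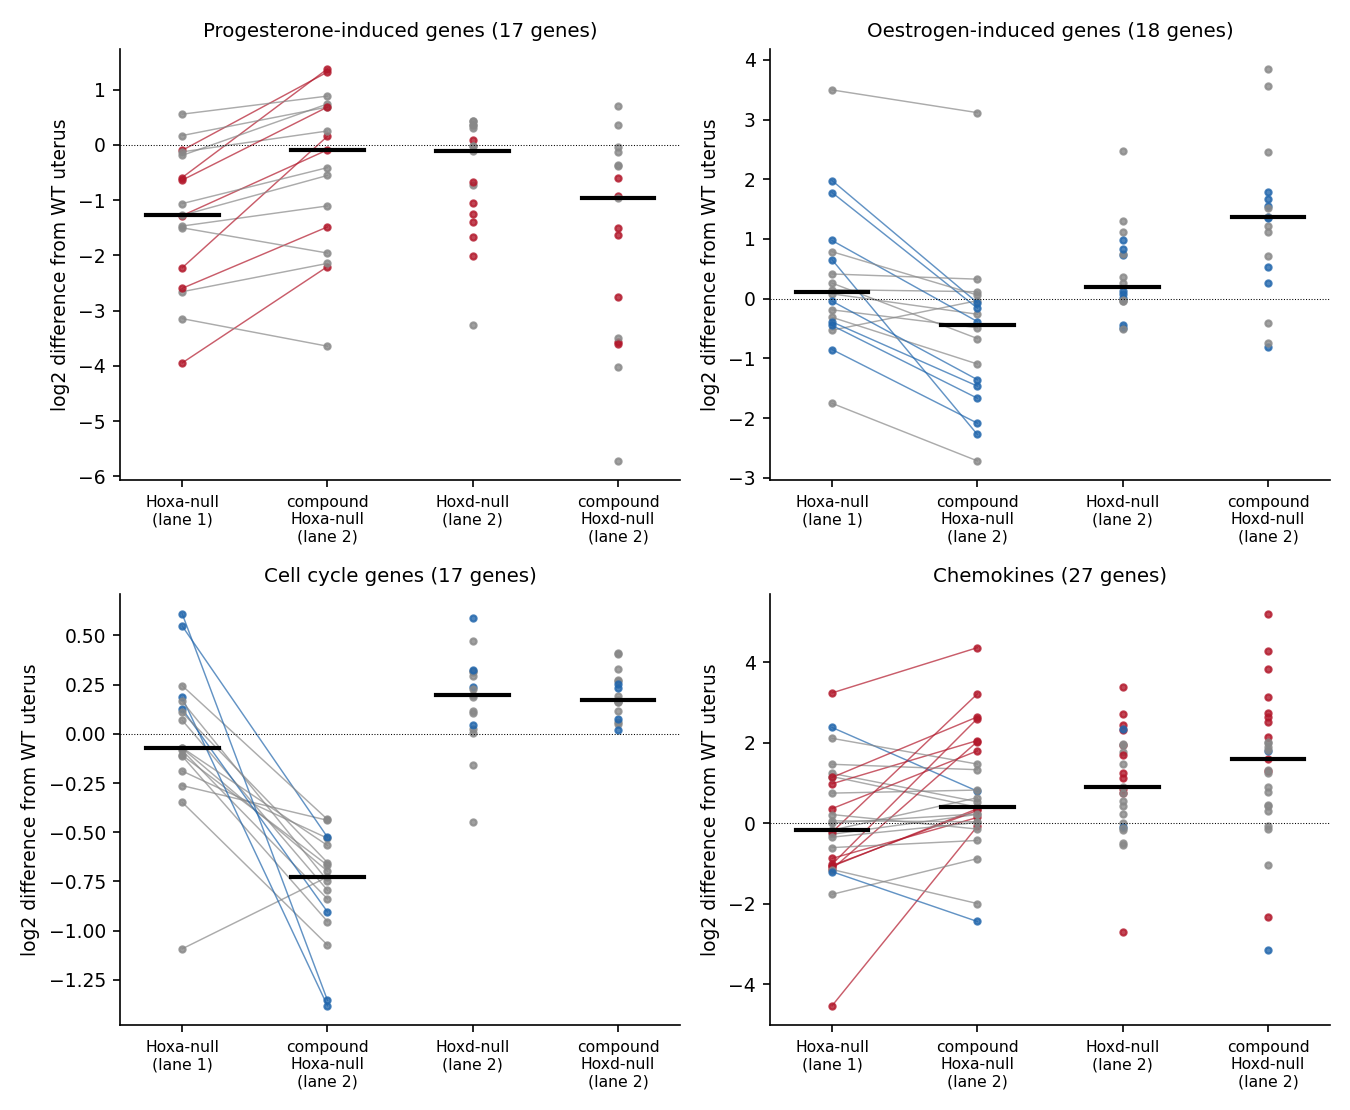
Each point is 1 gene of the progesterone-induced, oestrogen-induced, cell cycle or chemokine list, by its difference from the WT uterus (y axis, log2, a scale of its own in each panel) in the 4 mutant uteri (x axis), with a line between the Hoxa-null and the compound uterus, red or blue for genes at least 2-fold higher or lower there, and a bar at the median. Of 17 cell cycle genes, 16 lines slope down, while the progesterone-induced median moves from -1.28 to -0.09.

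Lists of leukocyte markers differed in how many of their genes were higher in the compound uterus. Their counts stand beside 6.89% higher and 5.13% lower among all measured genes. Of 11 measured genes of B and plasma cells, 6 were higher and none lower, with a median of 1.01 log2 units, led by the transcriptional coactivator Pou2af1 at 2.22. Pou2af1 stood at -0.54 log2 units from WT in the Hoxa-null, 1.68 in the compound, 2.18 in the Hoxd-null uterus and 1.81 in the compound Hoxd-null uterus. The 3 lane 2 uteri were all above both lane 1 uteri for Pou2af1, as for the other higher B cell genes. Of 12 T cell genes, 4 were higher and none lower, with a median of 0.70. Cd3e, a chain of the T cell receptor complex, stood at 0.61, 1.69, 2.62 and 1.70 log2 units from WT. In all 4 higher T cell genes the lane 2 uteri again stood above both lane 1 uteri. For Cd3g, though, the compound and compound Hoxd-null uteri lay only 0.03 and 0.01 log2 units above WT. Of 12 neutrophil genes, 4 were higher, with a median of 0.56, although 1 of these, Mmp8, had 2.0 normalised reads in the compound uterus against the floor. Retnlg, a neutrophil resistin-like protein, stood at 1.86, 5.17, 7.06 and 6.45. For Retnlg, Mmp9 and Fpr1, but not Mmp8, the lane 2 uteri likewise stood above both lane 1 uteri. Lane and mutation cannot be told apart for such genes. The neutrophil list had medians from WT of 0.04 in the Hoxa-null, 0.36 in the compound, 2.75 in the Hoxd-null uterus and 2.62 in the compound Hoxd-null uterus, highest in the 2 uteri with both Hoxd copies mutant. S100a8 and Mpo, defining neutrophil genes, differed by -0.76 and -0.89.

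Eosinophil genes were mixed, with differences of 3.33 log2 units in Prg2, a granule protein, and 2.06 in the eotaxin receptor Ccr3. Prg2 stood at -2.70 log2 units from WT in the Hoxa-null against 0.63 in the compound uterus. Ear1, Ear2 and Il5ra, also eosinophil genes, stayed within 2-fold, at 0.95, -0.38 and -0.30. The list that held them together with mast cell genes had 3 higher and 1 lower of 13 genes and a median of -0.20. The lower one was the mast cell tryptase Tpsab1, at -2.47 log2 units. For Prg2, Ccr3 and Siglec5, the 3 higher ones, the lane 2 uteri all stood above both lane 1 uteri. Class II presentation genes numbered 2 higher of 11 with a median of 0.47, led by H2-Eb1 at 1.79, and macrophage genes 1 higher of 13 with a median of 0.15. For H2-Eb1 and for Mpeg1, the higher macrophage gene, the lane 2 uteri also stood above both lane 1 uteri. None of the 11 natural killer cell genes passed 2-fold, at a median of -0.18. The granzyme genes of uterine killer cells were at or near the floor in both uteri, with Gzmf at 2.47 normalised reads in the Hoxa-null uterus against 115 in the WT uterus.

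Adipocyte and smooth muscle genes mark tissue around the lining. Of 15 adipocyte genes, 6 were higher and 1 lower, against 6.89% and 5.13% of all measured genes, with a median of 0.81 log2 units. Their medians from WT were -1.09 in the Hoxa-null, -0.10 in the compound, -0.39 in the Hoxd-null uterus and -2.60 in the compound Hoxd-null uterus. Adiponectin (Adipoq), the fat cell hormone, stood at -1.84 log2 units from WT in the Hoxa-null against -0.47 in the compound uterus. Of 18 smooth muscle genes, only Myh11, the smooth muscle myosin heavy chain, passed 2-fold, at 1.08, but 16 differences were positive with a median of 0.54, and the compound uterus was the highest of the 5 for 14 of them. The adipocyte, smooth muscle and leukocyte lists were read from the same 2 libraries as the other gene groups above. The part of such cells in the differences of those groups was not tested. The keratins Krt8 and Krt18 of simple epithelium differed by 0.17 and 0.37 log2 units.

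Gland and epithelial markers were mixed. Of 15 uterine gland genes, 1 was higher and 6 lower, against 6.89% and 5.13% of all measured genes, with a median of -0.53 log2 units. Prss28 (Gene ID 114661, mm9 chromosome 17, start 25445591), a serine protease secreted by the glands, had 7280 normalised reads in the WT, 28.4 in the Hoxa-null uterus and 1.20 in the Hoxd-null uterus, and stood at the floor in the compound and compound Hoxd-null uteri. The compound uterus was at least 9.44-fold below a Hoxa-null level that was itself far below WT. Sox9, a transcription factor of gland epithelium, differed by -1.42 log2 units, and Lif, the gland cytokine needed for implantation, by -1.33, from 1.15 above WT in the Hoxa-null to -0.19 in the compound uterus. Foxa2, the transcription factor of the glands, differed by -0.53. Calb1, a calcium-binding protein, was the 1 higher gene, at 1.73. Among simple epithelium genes, the tight junction gene Cldn3 differed by 1.21 and the keratin Krt7 by -1.19. Of 5 urothelium genes, 3 were lower, Grhl3, Krt20 and Upk1a, at -3.10, -2.24 and -1.71, and Grhl3 is also a factor of the epidermal barrier.

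Genes of ovary and oviduct, tissues that adjoin the uterus at dissection, gave 5 lower and 1 higher of 12 measured. The median was -0.79 log2 units, and 5.13% of all measured genes were lower and 6.89% higher. Hsd3b1, an enzyme of steroid synthesis, had 20.3 normalised reads in the Hoxa-null, 2.0 in the compound and 270 in the compound Hoxd-null uterus, stood at the floor in the WT and Hoxd-null uteri and reached 4912 in the oviduct. Its Hoxa-null to compound ratio of 10.2-fold had an interval of 2.49 to 89.2. Amh, Gdf9 and Inhbb, genes of ovarian follicles, differed by -2.20, -1.87 and -2.97 log2 units. Ovgp1, the oviduct glycoprotein, was the higher one, at 1.36. Ovarian genes thus stood higher in the Hoxa-null library, and their part in the lower members was not tested.

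Signalling pathways contributed members in both directions with medians near that of all genes. Their counts are small and stand beside 6.89% higher and 5.13% lower among all measured genes. Among 26 genes of the BMP and TGF-beta pathway, 3 were higher and 3 lower, with a median of 0.11 log2 units. All 3 higher ones were secreted antagonists: Chrdl1 at 1.90, Grem1 at 1.82 and Fst at 1.11. Noggin (Nog), another BMP antagonist, was lower, standing at -3.90 log2 units from WT in the Hoxa-null, -6.19 in the compound, -2.11 in the Hoxd-null uterus and -4.41 in the compound Hoxd-null uterus. Nog was below WT in all 4 mutant uteri and lowest in the compound one. The ligand subunit gene Inhbb and the ligand gene Gdf6 were the other 2 lower genes, at -2.97 and -1.29.

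Among 32 Wnt pathway genes, 3 were higher and 2 lower, near the shares of all measured genes, with a median of 0.06. The ligand genes Wnt11 and Wnt2b differed by 1.82 and 1.10 log2 units and Notum, a secreted enzyme that inactivates Wnt ligands, by 1.07. Wif1, a secreted Wnt inhibitor, stood at -1.47 in the Hoxa-null, -3.66 in the compound, 0.88 in the Hoxd-null uterus and -0.10 in the compound Hoxd-null uterus, and the epithelial ligand gene Wnt7b differed by -1.07. Wif1 was thus at least 2-fold below WT only in the 2 uteri without wild-type Hoxa copies. Axin2 and Lef1, common Wnt targets, differed by -0.59 and 0.02.

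Among 15 retinoic acid genes, 4 were lower and 1 higher, with a median of -0.18 log2 units. Crabp1, a cytoplasmic retinoic acid binding protein, stood at 1.38 log2 units from WT in the Hoxa-null, -2.99 in the compound, 1.24 in the Hoxd-null uterus and -0.62 in the compound Hoxd-null uterus. Lrat, which esterifies retinol for storage, stood at 0.67, -2.28, -1.94 and -0.78. Cyp26b1, which breaks retinoic acid down, and Aldh1a2, which makes it, differed by -1.73 and -1.10. Stra6, the retinol uptake receptor, was the higher one, at 1.13, from -2.76 in the Hoxa-null to -1.63 in the compound uterus against WT.

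Of 18 collagens, 4 were higher and 1 lower, against 6.89% and 5.13% of all measured genes, with a median of -0.08 log2 units. Of the higher ones, Col22a1 had 4.01 normalised reads in the compound uterus against the floor. Col12a1, of the fibril surface, stood at -0.25 log2 units from WT in the Hoxa-null against 1.69 in the compound uterus, and Col11a1, a minor fibrillar collagen, at -0.02 and -2.63. The abundant fibrillar Col1a1, Col1a2 and Col3a1 differed by -0.08, -0.09 and 0.33. Among 21 patterning factors of the tract, Isl1, a homeodomain factor, was 2.46 log2 units higher, and Pitx1, a homeodomain factor of the hindlimb, differed by -1.39. Pitx1 had 210 normalised reads in the Hoxa-null, 80.1 in the compound, 1.20 in the Hoxd-null uterus and 14.6 in the compound Hoxd-null uterus and stood at the floor in the WT uterus. Pitx1 was therefore present in all 3 uteri with a mutant Hoxa copy and highest in the Hoxa-null one.

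**Figure D4:**
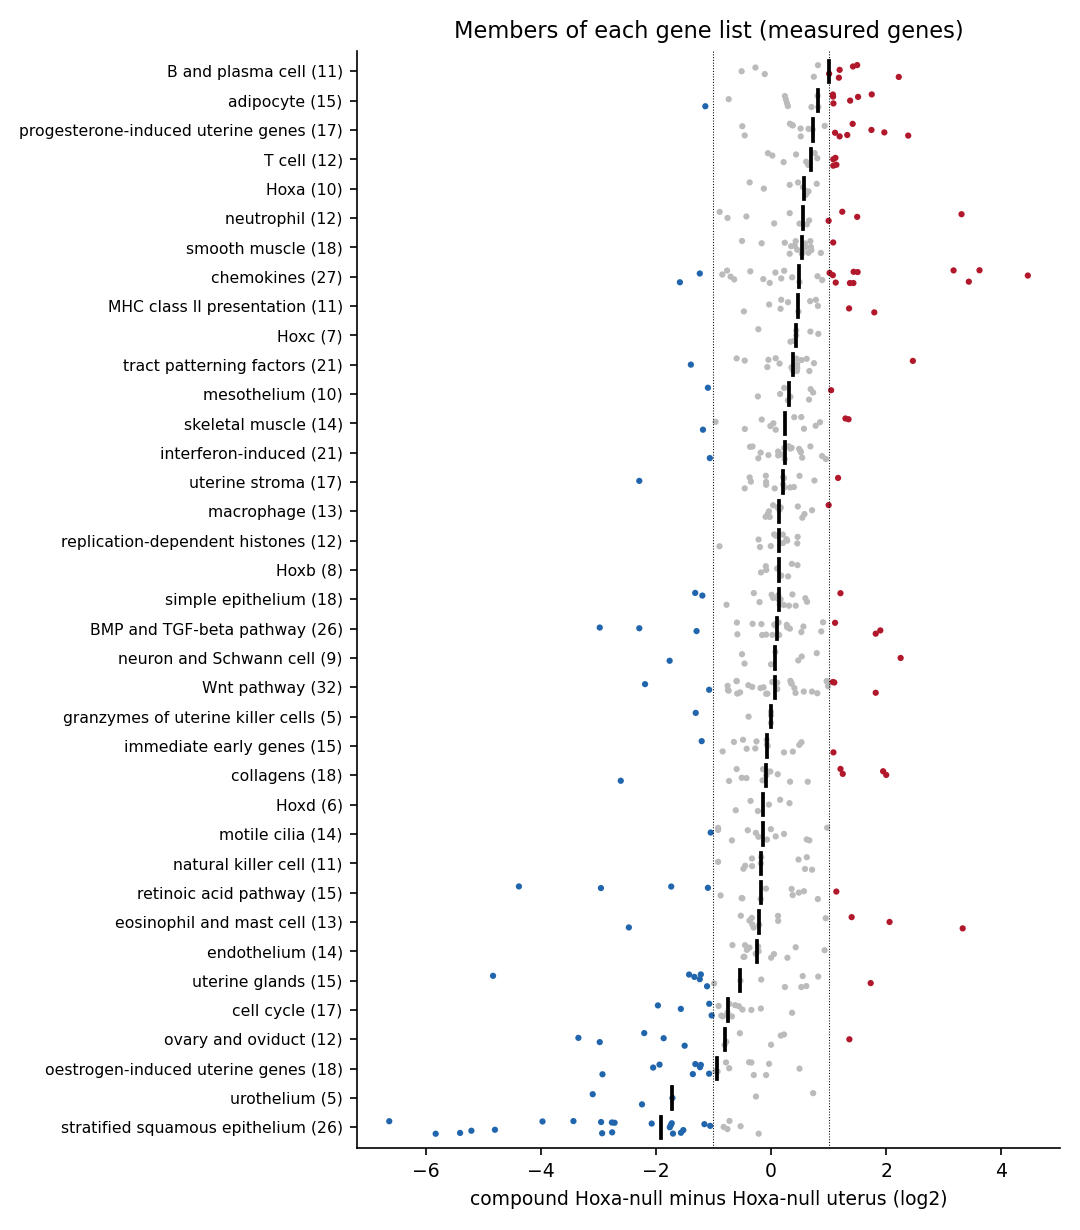
Each point is a measured gene by its difference between the compound and the Hoxa-null uterus (x axis, log2), in 1 row per list with the number of genes in brackets, red or blue past the dotted lines at 1 log2 unit, and a bar marks the median. The squamous median lies farthest to the left, at -1.92, and that of B and plasma cells farthest to the right, at 1.01.

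The positions of the other uteri show how many members were split by lane over the 5 uteri. All 3 lane 2 uteri lay at least 1 log2 unit above both lane 1 uteri for 81 measured genes (0.475%), all of them higher members by construction, and below both for 45 (0.264%), which is 6.89% of the higher and 5.15% of the lower members. Lefty1, Retnlg and Cxcl2 were among the higher ones, as was F10, the coagulation factor X gene, which stood at 0.48 log2 units from WT in the Hoxa-null, 3.81 in the compound, 4.49 in the Hoxd-null uterus and 3.38 in the compound Hoxd-null uterus. Muc5b, Prss28 and the water channel gene Aqp8 were among the lower ones. For such genes the deposited values cannot tell lane from mutation. With a gap of any size the counts were 357 and 197. The compound uterus lay outside the range of all 4 other uteri for 287 higher and 216 lower members by at least 1 log2 unit, and the Hoxa-null uterus for 214 and 205. Genes placed so are members by construction. These counts set no limit on the part of lane, which was not tested.

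Among all 10 pairs of the 5 uteri, the pair described here had the fewest genes at least 2-fold apart but for 1. The fewest, 1741 (10.2%), separated the Hoxd-null from the compound Hoxd-null uterus, both in lane 2, and the most, 3004 (17.6%), the Hoxd-null from the compound Hoxa-null uterus, also both in lane 2. These pairs differ in genotype as well, so the counts do not separate lane from mutation.

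The same loss of a Hoxd copy could be followed in the vas deferens, where both libraries of the corresponding pair were run in lane 2. Of 15996 genes measured in both sexes, 6.96% lay at least 2-fold apart in the vas deferens, 5.26% higher with the Hoxd copy lost and 1.70% lower. Among 942 higher members measured there, 155 (16.5%) were higher in the vas deferens as well and 44 (4.67%) lower. Among 685 lower members, 55 (8.03%) were lower in the vas deferens and 106 (15.5%) higher. For higher and lower members alike, the shares exceeded those of all genes in both directions. Whether genes that vary between any libraries make up these shares was not tested.

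Genes higher in both tissues included genes of cilia and sperm. Meig1 differed by 6.01 log2 units in the uterus and 2.84 in the vas deferens, Iqub, named for its IQ motif, by 2.54 and 3.28, and Capza3, a sperm actin-capping subunit, by 2.52 and 4.04. Genes of motile cilia as a list lay near 0 in the uterus, with 1 lower of 14 and a median of -0.14 log2 units, while in the vas deferens 9 of 13 were at least 2-fold higher, with a median of 1.93. In the vas deferens the squamous list had a median of -0.08 log2 units, with 4 of 24 genes at least 2-fold lower, and Krt6a and Krt6b differed there by 0.65 and 0.80. Genes lower in both tissues included the cornified envelope gene Sprr1a, at -2.95 in the uterus and -3.33 in the vas deferens, the keratinocyte galectin Lgals7 at -2.25 and -2.49, the corneodesmosome gene Cdsn at -2.92 and -2.06, Tpsab1 at -2.47 and -4.07, Wif1 at -2.19 and -3.20 and Serpinb1c at -5.47 and -4.66.

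Between the Hoxd-null and compound Hoxd-null uteri, 17.4% of the higher members were at least 2-fold higher and 12.6% lower, and 18.2% of the lower members were lower and 18.5% higher, against backgrounds of 5.64% higher and 4.58% lower. The squamous list went the other way there, with 15 of 26 genes higher in the compound Hoxd-null uterus, which had lost a Hoxa copy. The WT oviduct, the segment in front of the uterus, was at least 2-fold above the WT uterus for 40.3% of the higher members and below it for 16.6%, against backgrounds of 16.7% and 11.8%. For the lower members these shares were 30.5% above and 35.8% below. The members thus differed between the WT oviduct and WT uterus libraries more often than measured genes in general, in both directions. The oviduct was sequenced in another run than the uteri, so segment and run cannot be told apart. Whether genes that vary between any libraries make up these shares was not tested.

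**Figure D5:**
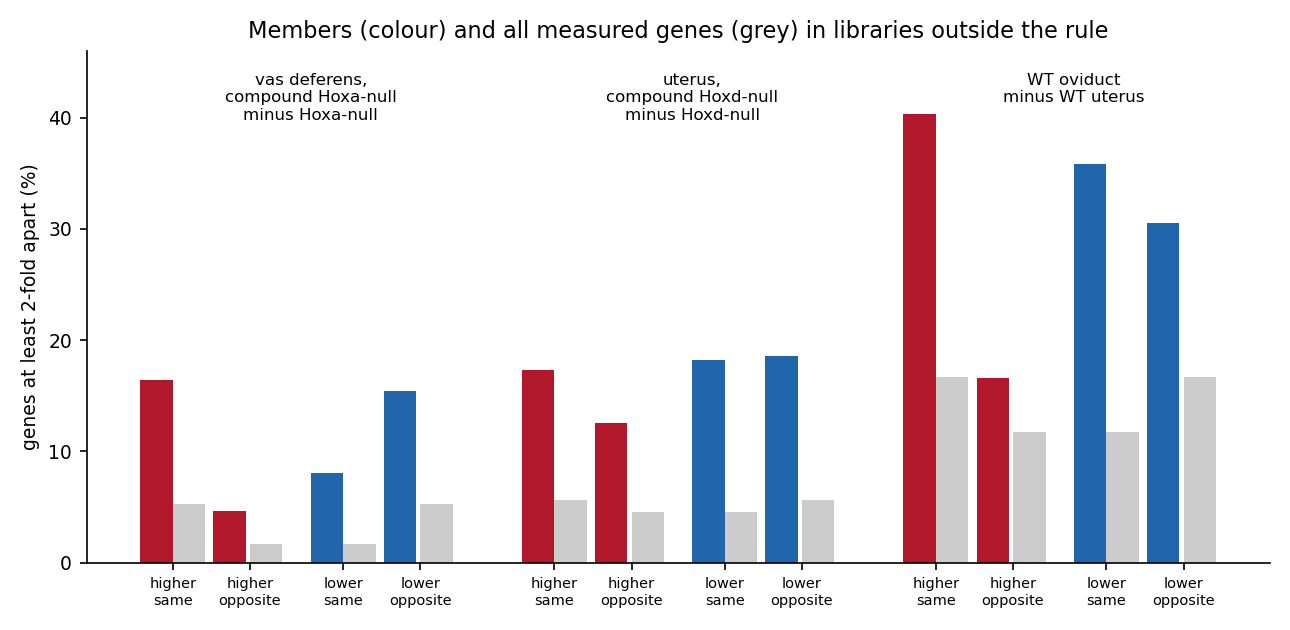
Bars give the percentage of higher members (red) and lower members (blue) at least 2-fold apart in library pairs not used to choose them, in the same or the opposite direction as in the uterus pair, beside the percentage of all measured genes in that direction (grey). In the vas deferens, 16.5% of the higher members were higher too, against 5.26% of all genes, and of the lower members 8.03% were lower too, against 1.70%, and 15.5% higher, against 5.26%.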

How the data were processed

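RNA sequencing of 12 mouse libraries, each from RNA pooled from 3 animals, was used. Extraction used Qiagen RNeasy Mini columns and library preparation Illumina TruSeq reagents, per the labels. The tool TopHat and the build mm9 are named per the submitters' processing notes. What counted the reads, on which annotation and strand, and how libraries were normalised is not given in the sources used here. The authors deposited log2 values with a median of 0 per gene over the 6 libraries of a sex, so levels are lost and only differences within a sex were taken. Run, lane and index were read per the file headers.

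Tissue and genotype in the labels gave the groups, and with 1 library per group no test was run. The spacing of low values showed reads scaled by library, whole for many genes and in fractions of a read for others, with anything below 1 set to 1. Shifts between libraries were removed (largest 0.00508 log2 units for females, 0.00408 for males). Normalised reads are printed only for genes with a library recognised at the floor. Genes with a recognised level under 20 normalised reads in every library, and 12595 genes with 1 value throughout, were left out. On simulated data of 6000 genes for this comparison, 1389 of 1389 printed levels (100%) were recovered. All 200 genes given a known fold change passed 1 log2 unit the right way. Those changes were well past the threshold, in well-read genes and without added spread between the pair. The simulation thus says nothing of members near the threshold or of false members. Of genes under 20 reads, 73.9% were recognised, so some low genes stay in. Total counts are unknown. Relative depth spanned 1.34-fold among female and 1.92-fold among male libraries. Intervals are exact Poisson or conditional binomial at 95%, which holds for whole reads. They do not allow for the choice of genes by the same difference.

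Genes were named, as far as the text has room, from the 15 largest each way, the 6 largest in each position class, the 8 same-way genes in the vas deferens, the 5 largest lane-pattern genes, the 4 largest of each of 39 lists and the mutated genes. Others are named as list members or were chosen after their values were seen. Members and lists were chosen with earlier results of these data known. Start regions came from a RefSeq table of GRCm38.p6, matched by Gene ID. A few single-gene results are not reported here. Python 3.11.15, numpy 2.4.6, pandas 2.3.3, scipy 1.17.1 and matplotlib 3.10.9 were used. The alternatives changed the shift, the minimum, the thresholds, the reference and the genes at the floor.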

Additional observations from a re-analysis of the deposited data

Results flagged for a closer look

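Several genes differed by at least 2-fold between the compound and Hoxa-null libraries in the uterus and by at least 2-fold the opposite way in the vas deferens. With 1 library per group the difference between the tissues was not tested. Lower in the uterus and higher in the vas deferens were Muc5b (-7.76 log2 units in the uterus, 2.80 in the vas deferens), Atp13a5 (-2.38 and 1.85), Gdf9 (-1.87 and 1.27), Paqr9 (-1.85 and 1.76), Myh7 (-1.18 and 1.24), Lep (-1.14 and 1.40) and Dnali1 (-1.05 and 3.32). Higher in the uterus and lower in the vas deferens were Krt35 (4.91 and -1.17), Isl1 (2.46 and -1.03) and Siglec5 (1.40 and -1.28). Mmp8 differed by -2.84 log2 units in the vas deferens, but in the uterus it had 2.0 normalised reads in the compound library against the floor in the Hoxa-null library, so no fold in the uterus is given. For Lep, with 13.2 normalised reads in the Hoxa-null against 6.01 in the compound uterus, the values rest on few reads.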

How the results depend on the processing

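The counts of 1175 higher and 874 lower members stayed within 1.5 times under other minimums, without the removed shift and without genes at the floor. A threshold of 2 log2 units left 275 and 246. Calling a difference from WT at 0.5 log2 units gave 173 higher members farther from WT, 125 nearer, 267 on opposite sides and 0 in neither class, and 153, 114, 137 and 0 for the lower members. With the mean of the Hoxd-null and compound Hoxd-null uteri, from lane 2, as the reference in place of WT, 41 higher members lay on opposite sides and 57 lower members lay farther. Counting any difference in the vas deferens, 59.2% of the higher members and 44.2% of the lower ones went the same way, against 47.8% and 52.2% of all genes. A lane gap of any size gave 357 and 197. Of the named genes, 0 of 247 changed side of 2-fold without the shift, and 0 of 37 list medians did so without genes at the floor. No paired analysis was possible because each group is 1 library. Leaving out a library was likewise impossible. Depth limits low values, which move in steps of single reads, and neither animal spread nor lane effects can be estimated.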

Other observations

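Counts at least 2-fold apart between the compound and Hoxa-null uteri in gene groups of other cell types stand beside 12% of all measured genes. None of 14 endothelial genes passed 2-fold, with a median of -0.25 log2 units, and none of 12 replication-dependent histone genes, with a median of 0.15. Of 21 interferon-induced genes only Mx1 passed, at -1.06, with a median of 0.24. Of 17 stromal genes, Ptch1, the hedgehog receptor and target gene, was higher at 1.16 and Nog lower. Mesothelial genes gave 1 higher and 1 lower of 10, skeletal muscle genes 2 higher and 1 lower of 14, neuron and Schwann cell genes 1 and 1 of 9 (Tubb3 at 2.25 and Ngfr at -1.76), and immediate early genes 1 and 1 of 15. Of 4 red blood cell genes, Epb4.2 differed by -1.10 and the globin genes Hba-a1 and Hbb-b1 by 0.28 and 0.08.

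Sox2 and Nos1 stood far below WT in the Hoxa-null uterus and less so in the compound one. Sox2, a transcription factor of progenitor cells, was at -3.64 log2 units from WT in the Hoxa-null, -1.25 in the compound, -1.17 in the Hoxd-null uterus and -4.40 in the compound Hoxd-null uterus. Nos1, the neuronal nitric oxide synthase, was at -3.63, -1.17, -2.06 and -2.09. Adcy8, an adenylyl cyclase, lay above WT at 1.68 in the Hoxa-null against 4.65 in the compound uterus, and Rxfp2, the receptor for Insl3, below it at -1.51 and -5.11.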
